A study of Mus musculus with 8 samples.

Results

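The globin genes read on these arrays were the alpha globin genes Hba-a1, Hba-a2 and Hba-x and the beta globin genes Hbb-b2, Hbb-bh1 and Hbb-y, 6 of the 18193 genes measured. They were chosen by family, and each gene was represented by the brightest of its singly named probe sets, averaged over the 8 arrays. Its other probe sets served as a check. Probe sets that read several globins at once were kept apart, which gave 15 globin probe sets in all, 11 of a single gene and 4 shared. Lineage-low, Sca1-positive, cKit-high (LSK) cells, the stem and progenitor cells of the marrow, were sorted by flow cytometry and their amplified RNA was hybridised to Affymetrix mouse arrays. Tested mice were heterozygous for Jak2V617F, an always active form of the kinase that transmits erythropoietin and thrombopoietin signals (4 arrays), and were compared with wild type mice (4 arrays), all on the C57BL/6 strain. Age, sex and the way the mutant allele was expressed are not given in the labels. Values are deposited log2 intensities, and every difference is Jak2V617F minus wild type.

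Haemoglobin is a tetramer of alpha-type and beta-type globin chains, each holding a haem group. The alpha genes lie together on mouse chromosome 11 and the beta genes on chromosome 7, and each cluster is read by a distant enhancer region and by erythroid factors such as Gata1, Klf1 and Tal1. Hba-x, Hbb-y and Hbb-bh1 serve the primitive red cells of the embryo, while Hba-a1 and Hba-a2 and the adult beta genes serve definitive red cells, in which they become the dominant transcripts late in maturation. Stem and progenitor cells come before that stage. C57BL/6 mice carry the beta haplotype with the adult genes Hbb-bs and Hbb-bt, whereas Hbb-b1 and Hbb-b2 are names of the adult genes of another haplotype. Which of these transcripts the Hbb-b2 probe sets read was not tested.

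The promoters of adult and embryonic globins are shown as background. The differences below do not divide this way throughout. The probe sets named for Hba-a1 or Hba-a2 alone differed little, as the embryonic ones did. Any link of promoter sequence to the values was not tested. Of the 6 genes, 4 had an entry in the RefSeq promoter table of build GRCm38.p6 (Hba-a1, Hba-a2, Hba-x and Hbb-y), and the adult genes of C57BL/6, Hbb-bs and Hbb-bt, were added. Each line holds the 200 bases before the annotated start, 5′ to 3′ on the gene's strand. Capitals mark 4 motifs searched on both strands, which are CCAAT (reverse complement ATTGG), the CACCC box (reverse complement GGGTG), the TATAA box (reverse complement TTATA) and the GATAA site of Gata factors (reverse complement TTATC). Where a CCAAT and an ATTGG touch, both are in capitals.
Hba-a1: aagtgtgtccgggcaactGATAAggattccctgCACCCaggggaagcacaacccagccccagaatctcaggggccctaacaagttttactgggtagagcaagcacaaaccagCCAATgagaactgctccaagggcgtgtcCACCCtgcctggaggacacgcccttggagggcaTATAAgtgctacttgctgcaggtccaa
Hbb-bs: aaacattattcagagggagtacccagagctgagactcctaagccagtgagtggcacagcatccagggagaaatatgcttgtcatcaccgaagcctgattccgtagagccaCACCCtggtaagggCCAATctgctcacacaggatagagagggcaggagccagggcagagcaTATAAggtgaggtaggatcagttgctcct
Hbb-bt: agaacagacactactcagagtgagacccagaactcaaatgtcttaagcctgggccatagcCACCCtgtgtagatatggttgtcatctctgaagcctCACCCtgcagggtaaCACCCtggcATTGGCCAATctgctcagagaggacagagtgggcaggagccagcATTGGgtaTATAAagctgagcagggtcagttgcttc
Hba-x: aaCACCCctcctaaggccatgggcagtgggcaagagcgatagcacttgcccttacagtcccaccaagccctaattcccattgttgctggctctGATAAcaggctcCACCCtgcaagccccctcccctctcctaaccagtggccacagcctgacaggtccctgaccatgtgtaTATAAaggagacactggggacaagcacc
Hbb-y: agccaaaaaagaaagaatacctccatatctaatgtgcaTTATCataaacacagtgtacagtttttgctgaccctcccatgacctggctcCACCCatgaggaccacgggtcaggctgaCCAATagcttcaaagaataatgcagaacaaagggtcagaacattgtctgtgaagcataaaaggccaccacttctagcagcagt

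These stretches lie at chr11:32283472-32283671 (Hba-a1, plus strand), chr7:103827929-103828128 (Hbb-bs, minus strand), chr7:103813924-103814123 (Hbb-bt, minus strand), chr11:32276400-32276599 (Hba-x, plus strand) and chr7:103853208-103853407 (Hbb-y, minus strand). The Hba-a2 stretch, chr11:32296292-32296491 on the plus strand, shares an unbroken run of 197 bases with that of Hba-a1, so the alpha genes are duplicates in their promoters too. In Hba-a1, CCAAT lay at -88 to -84, a CACCC at -60 to -56 and TATAA at -27 to -23, counted back from the start. In Hbb-bs, CACCC lay at -90 to -86, CCAAT at -76 to -72 and TATAA at -29 to -25. Hbb-bt held the same 3 motifs, with CCAAT at -75 to -71 next to an ATTGG at -80 to -76. Hba-x held no CCAAT or ATTGG in this window and Hbb-y no TATAA or TTATA. Among 32851 promoter windows of the same length, 29.3% held CCAAT, 45.5% CACCC, 18.5% TATAA and 18.1% GATAA on either strand, and 2.05% held the first 3 together. A match of letters is a description and does not show that a factor binds.

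The deposited arrays were alike in distribution, as the normalisation makes them. The median of an array lay between 7.06 and 7.15, and any 2 arrays correlated at 0.991 to 0.995 across probe sets. Neither figure measures the quality of an array, which was not tested. Among genes, 30 of 18193 passed limma at an adjusted p under 0.05, and the median difference over all genes was 0.05. Of the antigens of the sort, Kit was bright, at 12.67 ± 0.10 in Jak2V617F and 12.64 ± 0.14 in wild type cells (SD, n = 4 each). Ly6a, the gene of Sca1, had no singly named probe set. Cd34, not among the sorting antigens named above, read 13.93 ± 0.05 in Jak2V617F and 14.04 ± 0.02 in wild type cells. Jak2V617F array 3 and wild type arrays 1 and 2 showed high Xist and no Y-linked signal, which left 3 Jak2V617F and 2 wild type arrays with Y-linked expression. As a mark of absent transcript, 44 olfactory receptor probe sets had a median of 4.06 and a 90th percentile of 4.93, and a probe set below 4.93 in both groups is called near background here.

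Adult alpha globin signal was higher in LSK cells of Jak2V617F mice on every probe set that Hba-a1 and Hba-a2 share, by 3.86-fold to 6.38-fold. The brightest of these, 1428361_x_at, read 12.09, 13.31, 11.16 and 13.07 in Jak2V617F arrays 1 to 4, against 9.49, 10.30, 10.76 and 8.63 in wild type arrays 1 to 4. The groups did not overlap, although Jak2V617F array 3 and wild type array 3 lay close together. The difference was 2.61 ± 0.55 (SE), or 6.12-fold, with a 95% interval from 1.38 to 3.84 on the log2 scale and a limma adjusted p of 0.0839 over all probe sets, so it missed the threshold.

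The second shared alpha probe set, 1452757_s_at, gave 10.99, 12.21, 10.17 and 12.03 in Jak2V617F arrays, against 8.44, 9.26, 9.79 and 7.21 in wild type arrays. Its arrays did not overlap either, and its difference of 2.67 ± 0.59 (SE) was the fifth highest of all 45037 probe sets (limma adjusted p = 0.0939). The third, 1417714_x_at, gave 8.03, 9.17, 7.08 and 8.67 in Jak2V617F arrays, against 6.13, 6.64, 6.94 and 5.43 in wild type arrays. It differed by 1.95 ± 0.45 (SE) with a limma adjusted p of 0.101. In all 3 the arrays stood in the same order within each genotype, arrays 2, 4, 1 and 3 from high to low among the Jak2V617F mice and arrays 3, 2, 1 and 4 among the wild type mice. In a bulk sample of sorted cells, more cells of a kind and more RNA per cell cannot be told apart.

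The probe sets named for a single adult alpha gene did not follow this pattern. For Hba-a2, the probe set 1427219_at read 13.25, 13.19, 13.23 and 13.20 in Jak2V617F arrays, against 13.16, 13.08, 13.35 and 13.22 in wild type arrays. It was bright and nearly flat, with a range of 0.27 over the 8 arrays beside a range of 4.68 for 1428361_x_at. Its difference of 0.01 ± 0.07 (SE; limma adjusted p = 0.936 over all genes) carried a 95% interval from -0.16 to 0.19 in the fit over all probe sets, an interval that does not reach those of the 3 shared probe sets. For Hba-a1, the probe set 1453574_at read 4.17, 4.28, 4.74 and 4.01 in Jak2V617F arrays, against 4.38, 3.92, 4.19 and 4.21 in wild type arrays, near background in both. No fold is given for it. The sequence that either probe set detects was not tested, and the alpha globin signal described here rests on the shared ones.

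**Figure D1:**
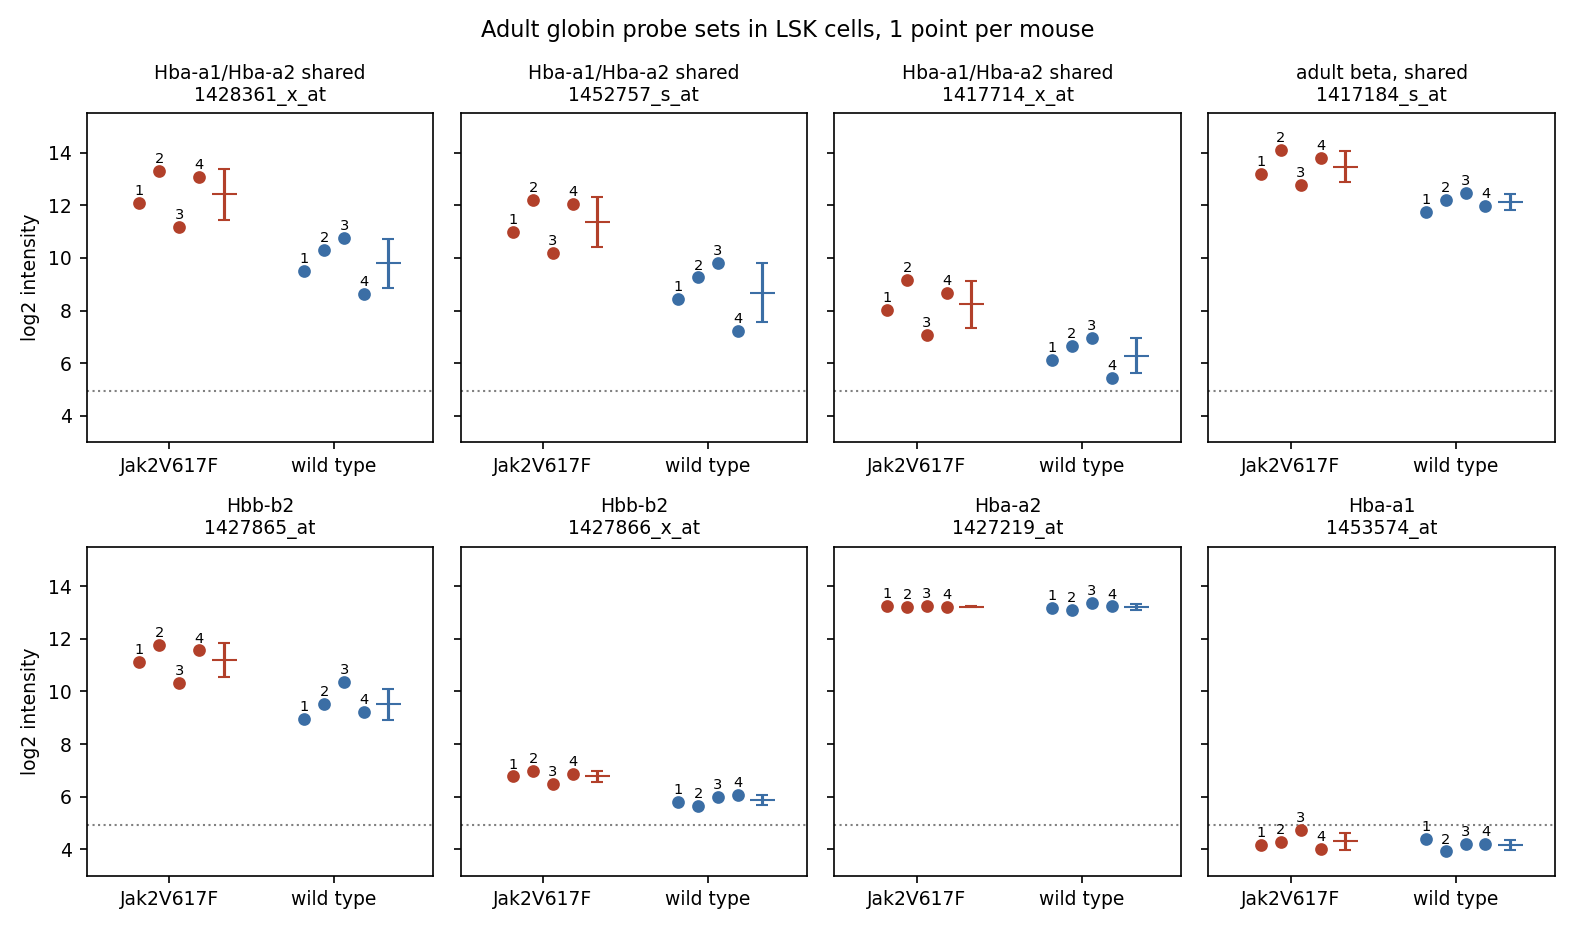
Log2 intensity of 8 adult globin probe sets, 1 point per mouse with its array number, Jak2V617F left of wild type in each panel; the bar beside the points is the mean with its SD (n = 4), and the dotted line is the near-background level of 4.93. The 3 shared alpha probe sets, the shared beta probe set and both Hbb-b2 probe sets stood higher in Jak2V617F mice, whereas the Hba-a2 probe set stayed near 13.2 in all arrays and the Hba-a1 probe set stayed below the line.

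Adult beta globin signal was also higher in Jak2V617F cells, by 1.87-fold to 3.19-fold on its 3 probe sets. The shared probe set 1417184_s_at, assigned to Hbb-bt, Hbb-bs, Hbb-b2 and Hbb-b1 together, read 13.17, 14.10, 12.78 and 13.79 in Jak2V617F arrays, against 11.76, 12.20, 12.47 and 11.98 in wild type arrays. The groups did not overlap. The difference was 1.36 ± 0.27 (SE), or 2.56-fold, with a 95% interval from 0.74 to 1.97 and a limma adjusted p of 0.0796 over all probe sets.

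Hbb-b2 was the globin gene with the greatest difference among the 6. Its brightest probe set, 1427865_at, read 11.12, 11.76, 10.31 and 11.55 in Jak2V617F arrays, against 8.97, 9.51, 10.34 and 9.22 in wild type arrays. Jak2V617F array 3 fell just below wild type array 3, and the groups were otherwise apart. The difference was 1.67 ± 0.36 (SE), or 3.19-fold, with a limma adjusted p of 0.103 over all genes and an exact permutation p of 0.0571 (two-sided).

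The other Hbb-b2 probe set, 1427866_x_at, was the 1 globin probe set that passed the test. It read 6.77, 6.98, 6.50 and 6.85 in Jak2V617F arrays, against 5.81, 5.64, 5.98 and 6.07 in wild type arrays, without overlap. It rose by 0.90 ± 0.13 (SE), or 1.87-fold, with a limma adjusted p of 0.0356 over all probe sets, where 0.244% of 45037 were called in either direction. The call ended without Jak2V617F array 1 (difference 0.90, limma adjusted p = 0.0755), array 2 (0.83, 0.0635) or array 4 (0.87, 0.103), and without wild type array 1 (0.88, 0.0842), array 2 (0.82, 0.079) or array 3 (0.94, 0.0897).

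Over all probe sets, then, 5 of 15 globin probe sets had every Jak2V617F array above every wild type array, beside 5.52% of 45037 probe sets, and 0 lay wholly below. An exact permutation test (two-sided) gave p = 0.0286 for each of the 5, among 15 such tests. Any probe set without overlap gets this p, the smallest that 4 arrays against 4 allow, so it only repeats that count. A difference above 1 was found for 5 of the 15, the 4 shared probe sets and 1427865_at, beside 0.28% of all probe sets. These probe sets overlap in the transcripts they read, so they do not count as separate observations. Of the 6 globin genes, 0 were called in limma over all genes, where 0.165% of genes were called and 6.82% had every Jak2V617F array above every wild type array, which held for 0 of the 6. Hbb-b2 and Hbb-y, 2 of the 6, were higher in Jak2V617F cells at an unadjusted p below 0.05, beside 11.9% of all genes that were higher at that threshold. The greater difference of alpha than of beta globin was not tested, since probe sets differ in how their signal scales with transcript.

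**Figure D2:**
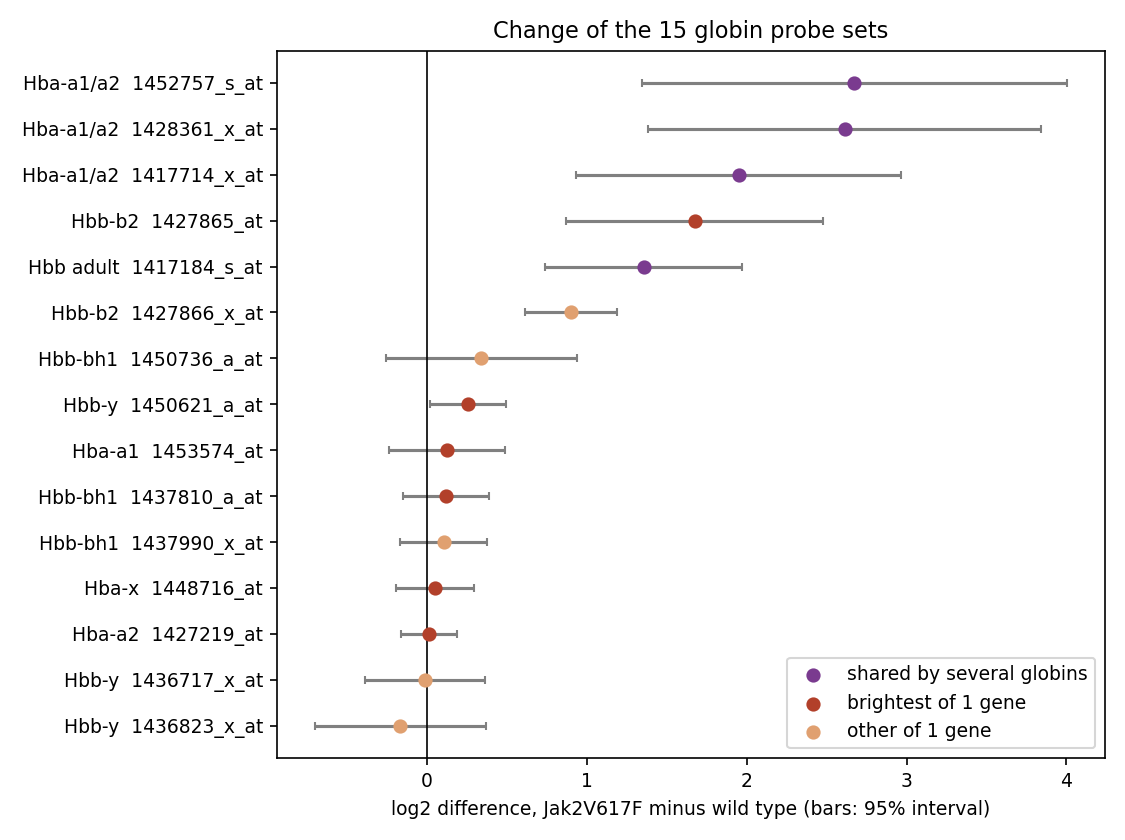
Difference in log2 intensity, Jak2V617F minus wild type, for the 15 globin probe sets, with 95% intervals from limma (4 arrays each); purple points are probe sets shared by several globins, red points the brightest probe set of a single gene and orange points its other probe sets. The 6 uppermost points, from 0.90 to 2.67, are all adult alpha or beta globin, and the embryonic globins, Hba-a1 and Hba-a2 lie between -0.17 and 0.34.

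The embryonic globins were dim and differed little. Hba-x, the embryonic alpha-type (zeta) chain, read 5.54, 5.68, 5.61 and 5.93 in Jak2V617F arrays, against 5.48, 5.61, 5.82 and 5.63 in wild type arrays. These overlapped throughout, with a difference of 0.05 ± 0.11 (SE; limma adjusted p = 0.824). Hbb-bh1, an embryonic beta-type chain, read 5.68, 5.50, 6.00 and 5.57 in Jak2V617F arrays, against 5.42, 5.54, 5.70 and 5.61 in wild type arrays on its brightest probe set, 1437810_a_at. Its difference was 0.12 ± 0.12 (SE; limma adjusted p = 0.599), and its other probe sets, 1450736_a_at and 1437990_x_at, were near background in both groups. The group means of Hba-x and Hbb-bh1 on these probe sets lay below 5.86, the 95th percentile of the olfactory receptor probe sets.

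Hbb-y, the embryonic epsilon-type beta chain, read 4.31, 4.61, 4.44 and 4.58 in Jak2V617F arrays, against 4.24, 4.43, 4.05 and 4.18 in wild type arrays, all near background. Its difference of 0.26 ± 0.10 (SE) had an unadjusted limma p of 0.0327 and an adjusted p of 0.254, and no fold is given. Its other probe sets, 1436717_x_at and 1436823_x_at, were also near background and differed by -0.01 and -0.17. Of the 6 globin probe sets near background in both groups, 3 belong to Hbb-y, 2 to Hbb-bh1 and 1 to Hba-a1.

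Among genes of the maturing red cell, Slc4a1 and Alas2, singled out after their values were seen, lay highest in the arrays with most adult globin signal. Slc4a1, the anion exchanger of the red cell membrane, read 9.10, 10.85, 8.34 and 10.13 in Jak2V617F arrays, against 6.96, 7.16, 8.12 and 6.90 in wild type arrays. It differed by 2.32 ± 0.51 (SE; limma adjusted p = 0.105) without overlap, and its arrays stood in the order of the shared alpha globin probe sets in both genotypes. Alas2, the erythroid enzyme that starts haem synthesis, read 6.89, 8.02, 5.56 and 7.75 in Jak2V617F arrays, against 5.54, 5.40, 5.86 and 5.34 in wild type arrays. Its difference was 1.52 ± 0.46 (SE; limma adjusted p = 0.189), and Jak2V617F array 3 lay among the wild type arrays. Tfrc, the transferrin receptor that brings in iron, differed by 0.75 ± 0.12 (SE; limma adjusted p = 0.0652) without overlap. Slc4a1 and Tfrc stand here beside 6.82% of all genes with every Jak2V617F array above every wild type array.

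Gata1 and Klf1, erythroid transcription factors, ordered the Jak2V617F arrays differently from the globins. Among the wild type arrays, Klf1 stood in the order of the shared alpha globin probe sets, as did Epor, Rhag and Car1. Gata1 did not, nor did every red cell gene, Gypc for example. Gata1 read 10.67, 10.98, 11.40 and 10.63 in Jak2V617F arrays, against 10.54, 10.72, 10.48 and 9.92 in wild type arrays. Klf1, the activator of the adult beta globin promoter, read 9.78, 10.94, 11.30 and 10.79 in Jak2V617F arrays, against 10.04, 10.25, 10.47 and 9.50 in wild type arrays. Jak2V617F array 3, lowest of its group in all 6 adult globin probe sets that lay higher, was highest of its group for both. This contrast was picked out after the values were seen and does not hold for every erythroid gene. Array 3 was also the sole Jak2V617F array with high Xist and no Y-linked signal. Within that group, a difference of sex and one of this mouse alone cannot be told apart. Of the 19 measured red cell maturation and membrane genes, array 3 was highest of its group for 9, among them Epor, Rhag and Car1, and lowest for 3, namely Slc4a1, Trim10 and Bpgm. Of the 18 measured globin transcription factors it was highest for 5 and lowest for 2, Zbtb7a and Mafk, and of the 13 measured haem supply genes it was highest for 1, Cpox, and lowest for 4, Alas2 among them. Gata1 differed by 0.50 ± 0.21 (SE; limma adjusted p = 0.271) and Klf1 by 0.64 ± 0.32 (SE; limma adjusted p = 0.337), and both overlapped.

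Among 18 transcription factors of the globin loci, 0 were called in limma, beside 0.165% of all genes, so this count says little. Of the 18, 11 lay above 0 and 7 below, with a median difference of 0.03, near the 0.05 of all genes. Besides Gata1 and Klf1, those with the smallest p were Cbfa2t3, a corepressor in the Tal1 complex (-0.33 ± 0.10, SE; limma adjusted p = 0.188), and Bcl11a, the silencer of embryonic and fetal globin (-0.17 ± 0.09, SE; limma adjusted p = 0.337). Cbfa2t3 lay lower in every Jak2V617F array than in any wild type array, beside 3.33% of all genes. Myb and Lmo2 differed by 0.00 and -0.01.

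Haem supply genes had 0 of 13 measured members called, beside 0.165% of all genes, 9 above 0 and 4 below, and a median of 0.09. Apart from Alas2, these were small differences, of which Uros, a mid-pathway enzyme of haem synthesis (0.23), Abcb10, a mitochondrial transporter (0.32), and Slc25a37, the mitochondrial iron importer mitoferrin (-0.21), had the smallest p. Red cell maturation and membrane genes had 18 of 19 measured members above 0 with a median of 0.41, beside 0.05 over all genes. Again 0 were called, beside 0.165% of all genes. Of the 19, 5 were higher in Jak2V617F cells at an unadjusted limma p under 0.05, beside 11.9% of all genes. Besides Slc4a1 and Tfrc, those with the smallest p were Epor, the erythropoietin receptor (0.55 ± 0.21, SE), and Trim10, a gene of terminal erythroid maturation (0.49 ± 0.21, SE).

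Neighbours of the alpha globin cluster lay on both sides of 0. Of 7 measured genes 4 lay above 0 and 3 below, with a median of 0.04 and 0 called, beside 0.165% of all genes called. Nprl3, whose introns hold the main alpha globin enhancers, read 10.53, 10.54, 10.22 and 10.47 in Jak2V617F arrays, against 10.33, 10.32, 9.95 and 10.13 in wild type arrays, a difference of 0.26 ± 0.11 (SE; limma adjusted p = 0.283) with overlap. Snrnp25, a component of the minor spliceosome, differed by 0.26, Mpg, a DNA repair glycosylase, by 0.25. Luc7l, a splicing factor, read 12.26, 12.27, 12.22 and 12.22 in Jak2V617F arrays, against 12.48, 12.38, 12.76 and 12.72 in wild type arrays. It differed by -0.34 ± 0.09 (SE; limma adjusted p = 0.162) and was the 1 gene of the 7 with every Jak2V617F array below every wild type array, beside 3.33% of all genes.

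**Figure D3:**
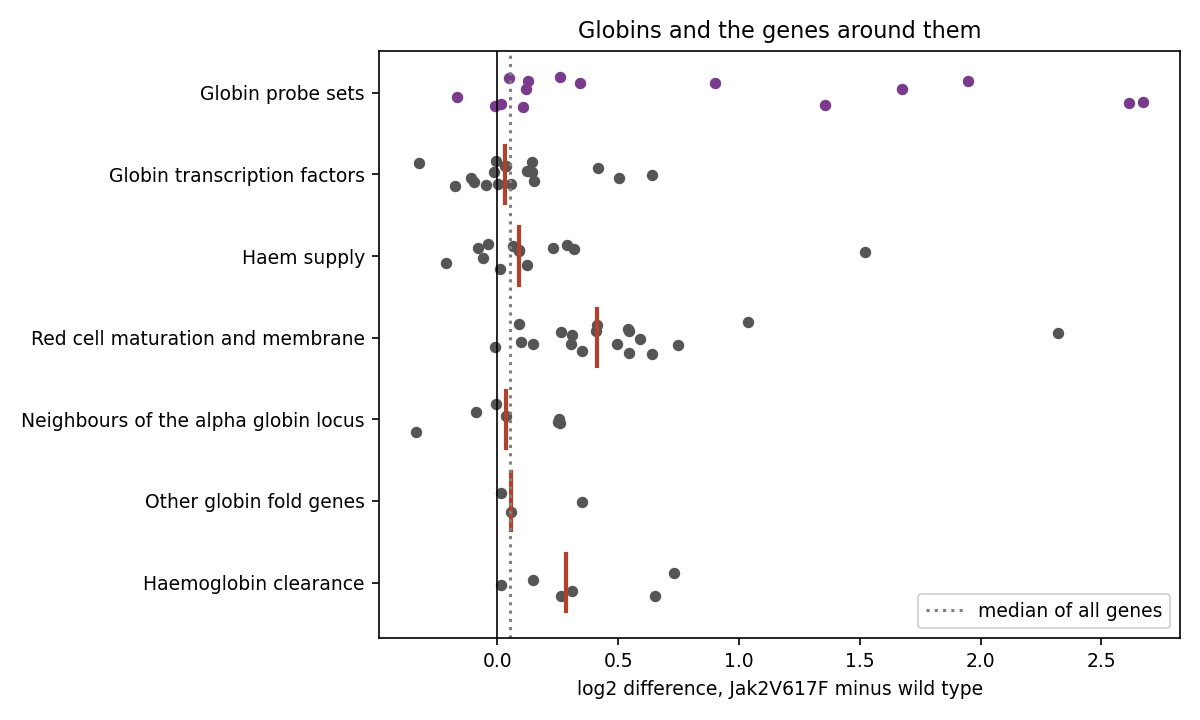
Differences in log2 intensity, Jak2V617F minus wild type, with 1 point per globin probe set (top row) or per gene (other rows); red bars are list medians and the dotted line is the median of all genes, 0.05. Slc4a1 at 2.32 and Alas2 at 1.52 lie as far right as adult globins, while transcription factors and neighbours of the alpha cluster lie between -0.34 and 0.64.

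Among the further globin-fold genes, myoglobin (Mb) read 6.41, 6.35, 6.41 and 6.46 in Jak2V617F arrays, against 6.17, 6.01, 5.97 and 6.08 in wild type arrays. The difference of 0.35 ± 0.07 (SE) was without overlap but missed the threshold (limma adjusted p = 0.0877). Neuroglobin (Ngb) and cytoglobin (Cygb) differed by 0.06 and 0.02, with overlap. Of the genes that clear haemoglobin and haem, all 6 lay above 0, with a median of 0.29 beside 0.05 over all genes. Limma called 0 of the 6, beside 0.165% of all genes. Cd163, the macrophage receptor that takes up haemoglobin bound to haptoglobin, read 9.32, 9.56, 9.67 and 9.58 in Jak2V617F arrays, against 8.69, 8.81, 8.94 and 9.09 in wild type arrays. It differed by 0.65 ± 0.11 (SE; limma adjusted p = 0.0652), also without overlap, as Mb did. Of all genes, 6.82% had every Jak2V617F array above every wild type array. Hp, haptoglobin itself, differed by 0.73 ± 0.26 (SE; limma adjusted p = 0.226), Blvra, a biliverdin reductase, by 0.15, and Hpx was near background in both groups.

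Among singly named genes, the 5 whose array values most resembled those of Hbb-b2 were not erythroid markers of the lists used here. Likeness was the root mean square distance between array values, each gene centred on its mean over the 8 arrays, and the 5 nearest of all genes were Ifitm6 (0.295), Mmp8 (0.325), Cd177 (0.356), Wfdc21 (0.376) and Ceacam10 (0.385). Mmp8 is neutrophil collagenase, also among the granulocyte markers, and Cd177 is a neutrophil surface protein. Ifitm6 read 10.10, 10.44, 9.38 and 10.81 in Jak2V617F arrays, against 8.35, 9.03, 9.17 and 8.73 in wild type arrays, and Mmp8 read 7.97, 8.80, 7.18 and 8.76 in Jak2V617F arrays, against 6.76, 6.52, 7.26 and 6.79 in wild type arrays. Differences were 1.36 for Ifitm6, 1.35 for Mmp8, 1.29 for Cd177, 1.28 for Wfdc21 and 1.61 for Ceacam10, and none passed limma over all genes (adjusted p from 0.103 to 0.223). The measure favours genes with a difference of like size, and Slc4a1 differed more than Hbb-b2. Probe sets shared by several globins were not in the search, and genes past the nearest 5 are not described here. The shared beta probe set 1417184_s_at ordered the arrays as 1427865_at did in both genotypes.

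Most granulocyte markers placed Jak2V617F array 3 lowest of its group, as the adult globins did. Of 8 markers, 7 lay above 0, with a median of 0.56 beside 0.05 over all genes. Limma called 0 of the 8, beside 0.165% of all genes. Their summed linear intensity ran from 72753 to 98340 in Jak2V617F arrays and from 55005 to 80135 in wild type arrays. At an unadjusted limma p under 0.05, 2 of the 8 were higher in Jak2V617F cells, beside 11.9% of all genes. Camp, the antimicrobial peptide cathelicidin of the secondary granules, read 13.03, 12.90, 11.57 and 13.16 in Jak2V617F arrays, against 10.78, 12.01, 12.46 and 11.89 in wild type arrays. Jak2V617F array 3 was lowest for 6 of the 8, Ltf, Camp, Ngp, S100a8, S100a9 and Mmp8, and highest for the other two, Mpo and Elane, enzymes of the primary granules. Only Mmp8 and S100a8 shared the full Jak2V617F order of the adult globins. Ltf, Camp, Ngp and S100a9 were highest in Jak2V617F array 4. Jak2V617F array 3 also differed from the rest of its group in sex-linked expression, and its place here cannot be told apart from that. None of the 8 granulocyte markers was near background. Their part in the globin result was not tested.

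**Figure D4:**
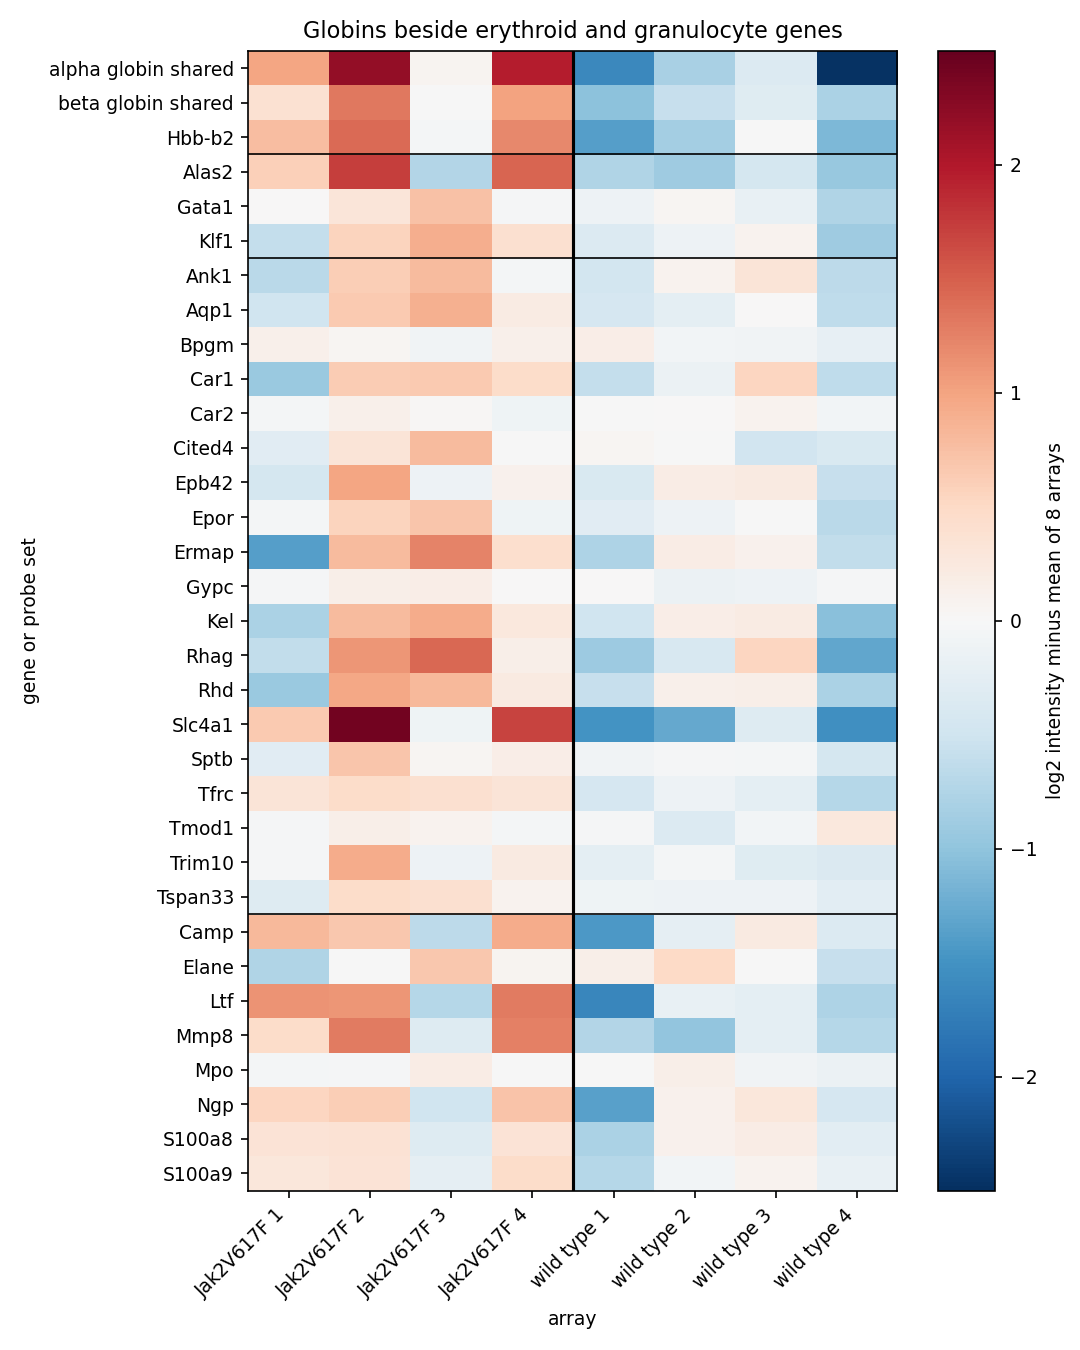
Log2 intensity minus the mean over 8 arrays, as colour, for 3 globin probe sets, for Alas2, Gata1 and Klf1, for all 19 measured red cell maturation and membrane genes and for all 8 granulocyte markers (rows, in blocks) in each array (columns, Jak2V617F left of wild type). Jak2V617F array 3 is the lowest of its group in the 3 globin rows and in 6 of the 8 granulocyte rows, and the highest of its group in 9 of the 19 red cell rows.

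Markers of other cells were read beside the globins. Erythroid cell markers had 6 of 6 measured members above 0 with a median of 0.48, and summed linear intensities from 5714 to 16310 in Jak2V617F arrays and from 6423 to 12500 in wild type arrays. Macrophage markers had 8 of 8 above 0 with a median of 0.58, and sums from 6921 to 12404 in Jak2V617F arrays and from 5041 to 8631 in wild type arrays. Megakaryocyte and platelet markers had a median of 0.24 over 6 measured members, with Gp6 near background, and T and B cell markers a median of 0.00 over 7, with Ms4a1 near background. Mature lineage antigens had a median of -0.02 over 5 and the markers of the LSK sort a median of -0.02 over 8. In the LSK list, every Jak2V617F array lay above every wild type array for Cd48 (0.35), beside 6.82% of all genes. Cd34 (-0.12) lay wholly below, beside 3.33% of all genes. In the other lists, 1 erythroid, 3 macrophage, 1 megakaryocyte, 1 T and B cell and 1 mature lineage marker lay wholly above. Cd4, in the T and B cell and mature lineage lists, lay wholly below. Limma called 0 members of any list in this paragraph, beside 0.165% of all genes. At an unadjusted limma p under 0.05, 1 of 6 erythroid, 4 of 8 macrophage and 2 of 6 megakaryocyte markers were higher in Jak2V617F cells. So were 1 of 7 T and B cell, 1 of 5 mature lineage and 2 of 8 LSK markers, beside 11.9% of all genes. In the T and B cell and mature lineage lists 1 member each was lower at that threshold.

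The adult globin difference was also present among mice of like sex-linked expression. Among the 5 arrays with Y-linked expression, Jak2V617F arrays 1, 2 and 4 and wild type arrays 3 and 4, 1428361_x_at differed by 3.13 ± 0.63 (SE; limma adjusted p = 0.131) and Hbb-b2 by 1.69 ± 0.34 (SE; limma adjusted p = 0.146). In a fit of all 8 arrays with sex-linked expression as a covariate, they differed by 2.46 ± 0.56 (SE; limma adjusted p = 0.086) and 1.47 ± 0.28 (SE; limma adjusted p = 0.0773). Jak2V617F array 3 was lowest of its group on both probe sets, so leaving it out can only raise their differences. Without that array the differences were 3.03 ± 0.50 (SE; limma adjusted p = 0.0719) and 1.97 ± 0.31 (SE; limma adjusted p = 0.0703). The arrays with Y-linked expression lack it too. Among them 1427866_x_at differed by 0.84 (limma adjusted p = 0.0899) and was not called. With the covariate it was called, at 0.82 (limma adjusted p = 0.0158).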

How the data were processed

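Gene expression was measured in LSK cells of 8 mice on Affymetrix mouse expression arrays, 1 array per mouse. Deposited values were log2 intensities. The submitters' processing notes name RMA, affy and R 2.11.0 as the authors' tools. The chip definition and any filter are not given in the sources used here. Quantile normalisation within RMA makes array distributions alike, so a shift of most transcripts would not be seen, and precision is limited by the number of arrays.

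Of 45101 probe sets, 64 controls were left out. The platform annotation gave 1 symbol to 34945 probe sets, several to 932 and none here to 9160. Genes took their probe set with the highest mean. Differences were tested with limma 3.58.1 in R 4.3.3, two-sided and with no covariate. P-values were adjusted by Benjamini and Hochberg's method over all 18193 genes, or over all 45037 probe sets for shared and second probe sets, at a threshold of 0.05. The script was tested on simulated data. The labels number the mice of both genotypes 1 to 4 without a stated pairing.

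The globin genes and gene lists were chosen with earlier results of these data known. Named were all globin probe sets, up to 4 members of each pathway list with the smallest p, and the 5 genes nearest to a globin gene whose mean exceeded the median and whose range exceeded 1. Further genes and the markers shown by array, such as Myb, Lmo2, Rhag and the granule genes, were chosen after their values were seen. List members that no singly named probe set reads were left out. Sex-linked expression as a covariate or a subset was added after seeing the data. Promoter sequences are from RefSeq.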

Additional observations from a re-analysis of the deposited data

Results flagged for a closer look

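Single arrays were compared with the others of their genotype by Dixon's ratio of gap to range for 106 groups of 4 arrays, the globin probe sets and the named genes, and 7 exceeded its 95% critical value. Chance alone marks about 5% of groups, and none of the 7 was a globin probe set. Jak2V617F array 3 stood below the other Jak2V617F arrays for the granule and calprotectin genes Ltf (10.06, others 11.87 to 12.08), Camp (11.57, others 12.90 to 13.16), Ngp (11.88, others 12.91 to 13.10) and S100a8 (13.33, others 13.99 to 14.01). It stood above them for Mpo, myeloperoxidase (14.70, others 14.49 to 14.52). It was also the sole Jak2V617F array with high Xist and no Y-linked signal. Jak2V617F array 1 stood below its group for the carbonic anhydrase gene Car1 (11.69, others 13.07 to 13.28), and wild type array 1 below its group for Wfdc21 (7.70, others 8.55 to 8.65).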

How the results depend on the processing

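No globin gene was called under any of 18 alternatives, which include each array left out. Over these the Hbb-b2 difference ranged from 1.29 with probe sets averaged to 1.97, with limma adjusted p from 0.0564 to 0.259. Over 14 alternatives 1428361_x_at ranged from 2.22 to 3.13 and 1417184_s_at from 1.14 to 1.58, all above 0 and uncalled. The count of called globin probe sets was 0 with the replicate number as a block, 0 among arrays with Y-linked expression, and 0 to 1 with each array left out. Deviations from the group mean correlated between same-numbered mice at r = -0.02, -0.22, -0.06 and 0.10 for numbers 1 to 4. Differently numbered mice ranged from -0.168 to 0.161, a range that number 2 fell below. With so few mice, these values cannot decide whether the numbers pair the samples. With the block 8 genes were called in place of 30, and 1427866_x_at had a limma adjusted p of 0.129. The gene count was 47 with median centring, 49 with probe sets averaged, 60 over probe sets of 1 symbol, 75 with a trended robust prior and 60 with sex-linked expression as a covariate. It was 13 to 40 with each array left out, and as low as 19, 16 and 14 without Jak2V617F arrays 1, 2 and 4 and 13 and 16 without wild type arrays 2 and 3. The near-zero differences turned sign among arrays with Y-linked expression for Hba-a1 (-0.044), Hba-a2 (-0.072), Hba-x (-0.015) and Hbb-bh1 (-0.071), and with the covariate for Hba-a2 (-0.0077). With each array left out, Hba-a1 ranged from -0.020 to 0.22, Hba-a2 from -0.027 to 0.062 and Hba-x from -0.029 to 0.11. The cause was not tested. Hbb-y, Hbb-bh1, Hba-x and Hba-a1 gave no value where dim genes were left out, nor Hbb-y and Hbb-bh1 with the _s_at, _x_at and _a_at probe sets removed. The precision at dim globins is limited by signal near background.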
